A study of Mus musculus with 12 samples.

Results

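The 35 genes described here encode nuclear-encoded subunits of respiratory complex I, the members of the Ndufa, Ndufab, Ndufb, Ndufc, Ndufs and Ndufv families that were chosen by gene name, with no threshold on a measured value, and without the Ndufaf assembly factors. They were 35 of the 55401 gene IDs in the count tables and 35 of the 16540 genes that had enough reads to be tested, so that no member was lost to the filter on low counts. The list does not hold every nuclear-encoded subunit of the enzyme. *Ndufb8* has 2 IDs under its symbol, 1 of which had no reads, and the other was used.

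Complex I, the NADH:ubiquinone oxidoreductase, is the entry point for NADH electrons into the respiratory chain of the inner mitochondrial membrane. Its matrix arm takes electrons from NADH through a flavin and a row of iron-sulfur clusters to ubiquinone, and its membrane arm pumps protons. Core subunits carry out this chemistry and are conserved from bacteria, 7 of them are made from mitochondrial DNA, and accessory subunits surround them and are needed to build and hold the enzyme. Beige adipocytes, the thermogenic cells that appear in subcutaneous fat in the cold, are rich in mitochondria and dissipate the proton gradient as heat through UCP1.

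RNA of subcutaneous white adipose tissue (scWAT) was sequenced from female mice, 12 libraries in 4 groups of 3. The groups were *Jmjd1a +/+* (wild type, WT) and *Jmjd1a HY/HY* mice, each held at 30°C, which is thermoneutral for mice, or at 8°C. HY is a CRISPR knock-in on the C57BL/6J background in the body as a whole, a histidine-to-tyrosine change that removes the demethylase activity of JMJD1A, a histone demethylase, and HY/HY females came from 1 line of mice, line #1. All were 16 weeks old at the start of the treatment and had a first week at 30°C before a second week, caged singly, at 30°C or 8°C. A library is taken as 1 mouse. The p-values set a difference against the spread between libraries within groups, estimated for each gene over all 12 libraries together. The comparisons ask how cold changed each subunit's RNA in each genotype, how the genotypes differed at each temperature, and whether the cold response itself differed between genotypes. Because the mutation is a single residue, read counts of *Jmjd1a* (listed as *Kdm3a*) cannot check the genotype labels: it was at 39.8 to 61.7 CPM in wild type and 37.4 to 52.7 CPM in HY/HY at 30°C, and at 35.7 to 42.9 and 43.2 to 45.8 CPM at 8°C.

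Levels are given as CPM, counts per unit of library size from the sense strand of a gene, with library sizes scaled by the trimmed mean of M-values (TMM). Total sense counts were 13592629 to 26352081 per library, with every 8°C library below every 30°C library. A gene was called changed at an adjusted p below 0.05 in the quasi-likelihood test of edgeR (Benjamini-Hochberg adjusted) together with a fold above 1.5 or below 0.67, and the difference between the genotypes' cold responses was called on the adjusted p alone. Skeletal muscle RNA was high in 1 library, wild type at 30°C replicate 2, where 10 muscle markers summed to 1701 CPM against at most 92.1 CPM in any other, and the summed members there (3639 CPM) lay between the other 2 libraries of the group. Adipocyte markers (*Adipoq*, *Plin1*, *Fabp4*, *Lep*, *Cidec* and *Lipe*) were present in every library, with sums of 12872 to 39456 CPM.

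Complex I RNA rose strongly with cold in wild-type scWAT and less in HY/HY scWAT. Summed over the 35 members, the level was 3503, 3639 and 5016 CPM in the wild-type libraries at 30°C and 10942, 11135 and 11183 CPM at 8°C, a ratio of means of 2.74. In HY/HY the sum was 3832, 4294 and 5258 CPM at 30°C and 5614, 5786 and 5534 CPM at 8°C, a ratio of 1.27. The order from low to high was therefore wild type at 30°C, HY/HY at 30°C, HY/HY at 8°C and wild type at 8°C. The 2 groups at 30°C overlapped, the HY/HY group at 8°C lay just above both, and the wild-type group at 8°C stood apart from all others. In bulk tissue, fewer cells rich in mitochondria and less complex I RNA per cell cannot be told apart.

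**Figure D1:**
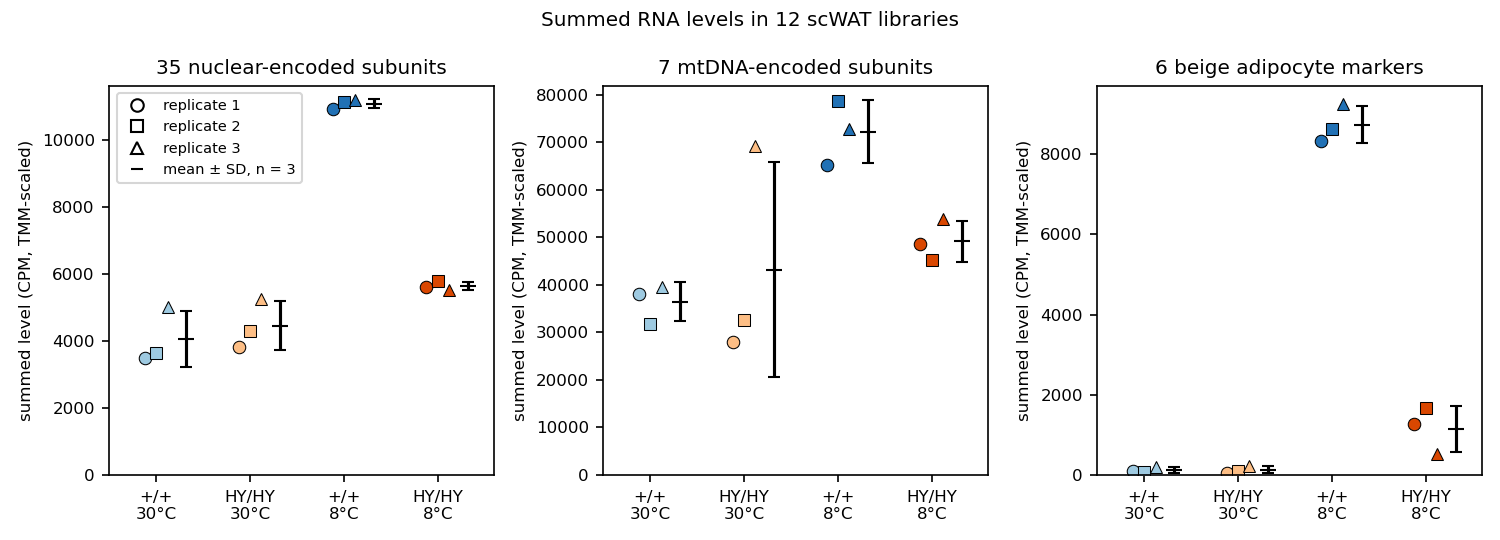
Summed RNA levels (y axis, TMM-scaled CPM) of the 35 nuclear-encoded subunits (left), the 7 subunits encoded in mitochondrial DNA (middle) and 6 beige adipocyte markers (right) in the 4 groups (x axis), with 1 symbol per library and the mean ± SD of 3 libraries beside them. The nuclear-encoded subunits of the wild-type group at 8°C span 10942 to 11183 CPM, above the 5534 to 5786 CPM of HY/HY at 8°C.

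In wild type, 34 of the 35 members were called higher at 8°C than at 30°C and none lower, where 10.3% of all genes tested were called higher. For all 35, the 3 libraries at 8°C lay above the 3 at 30°C, which held for 20.7% of all genes. The median log2 fold change of the members was 1.5, a fold of 2.83, beside a median over all genes tested of -0.07. Single members ranged from 0.39 for *Ndufa7* to 2.09 for *Ndufb6*. On the adjusted p alone all 35 passed, where 24.1% of all genes did in either direction. The 34 calls were the same with DESeq2, with every alternative of filter and scaling, and without any 1 library, including the library with muscle RNA. Scaling by library totals in place of TMM lowered the median of all genes by 0.34 in this comparison and the members' median to 1.18, and it turned the calls over all genes from 1707 higher and 1147 lower to 1057 higher and 4144 lower, while the members stayed at 34 higher.

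The core subunits, which hold the flavin and the iron-sulfur clusters, were all called. *Ndufv1*, which binds the flavin and oxidises NADH, rose from 158, 164 and 251 CPM to 561, 583 and 529.6 CPM, a log2 fold change of 1.55 ± 0.21 (SE). Its partner *Ndufv2*, which carries an iron-sulfur cluster beside the flavin, rose from 118, 133 and 165 CPM to 409, 459.6 and 510.2 CPM. *Ndufs1*, the large subunit that receives these electrons, rose from 131, 137 and 172 CPM to 317, 377 and 376 CPM, with 1 of the 8°C libraries below the other two. The log2 fold changes of these 3 subunits of the NADH-oxidising tip lay between 1.28 for *Ndufs1* and 1.73 for *Ndufv2*, with standard errors of 0.19 and 0.16.

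Nearer the ubiquinone site, *Ndufs8*, which holds iron-sulfur clusters on the way to ubiquinone, rose most of the core subunits, from 69.7, 76.0 and 96.0 CPM to 319.6, 312 and 328 CPM, a log2 fold change of 1.99 ± 0.15 (SE) and an adjusted p of 1.7e-05 in the quasi-likelihood test of edgeR (Benjamini-Hochberg adjusted). *Ndufs3*, a scaffold of the ubiquinone module, rose from 106, 118 and 159.8 CPM to 375, 402 and 412 CPM. *Ndufs7*, which holds the last iron-sulfur cluster before ubiquinone, rose least of the core, from 121, 122 and 177 CPM to 318, 294 and 285 CPM (1.09 ± 0.17 (SE) on the log2 scale). The wild-type libraries at the 2 temperatures did not overlap for any of them.

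The accessory subunits of the matrix arm were called in 8 of 9 cases, with a median log2 fold change of 1.47. The largest change among them was that of *Ndufa9*, which carries a bound nucleotide near the ubiquinone site, at 1.75 ± 0.20 (SE), followed by *Ndufa5* at 1.70 ± 0.14 (SE). The exception was *Ndufa7*, a small subunit at the base of the arm. It was at 164, 144 and 199 CPM at 30°C and 212, 222 and 229 CPM at 8°C, a log2 fold change of 0.39 ± 0.13 (SE) with an adjusted p of 0.0428 in the quasi-likelihood test of edgeR (Benjamini-Hochberg adjusted), which passed on p but stayed below the fold limit. With library totals as the scale its log2 fold change was 0.06. As a share of the summed members, *Ndufa7* took 4.68, 3.95 and 3.97% in the 30°C wild-type libraries and 1.93, 2.0 and 2.05% at 8°C.

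All 9 accessory subunits at the proximal membrane arm, the part next to the matrix arm, were called, with a median of 1.5 and a range from 1.13 for *Ndufa13* (also known as GRIM-19) to 1.82 for *Ndufc1*. All 10 at the distal membrane arm were called as well, with a median of 1.39. Here *Ndufb6*, a small membrane-spanning subunit, rose most of all 35 members, from 58.3, 58.1 and 83.4 CPM to 288, 274 and 286 CPM. *Ndufb3* rose least of this arm, from 105, 128 and 179 CPM to 269, 295 and 292 CPM, 1.05 ± 0.22 (SE) on the log2 scale. *Ndufab1*, the mitochondrial acyl carrier protein, which sits in both arms and also serves fatty acid synthesis, rose from 147, 142 and 155 CPM to 356, 518 and 547 CPM, with 1 of the 8°C libraries well below the other 2. The medians of the core subunits and of the accessory groups of each arm lay within 1.39 to 1.59 on the log2 scale, less than the spread among members of any arm. *Ndufab1*, a group by itself, was at 1.68.

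**Figure D2:**
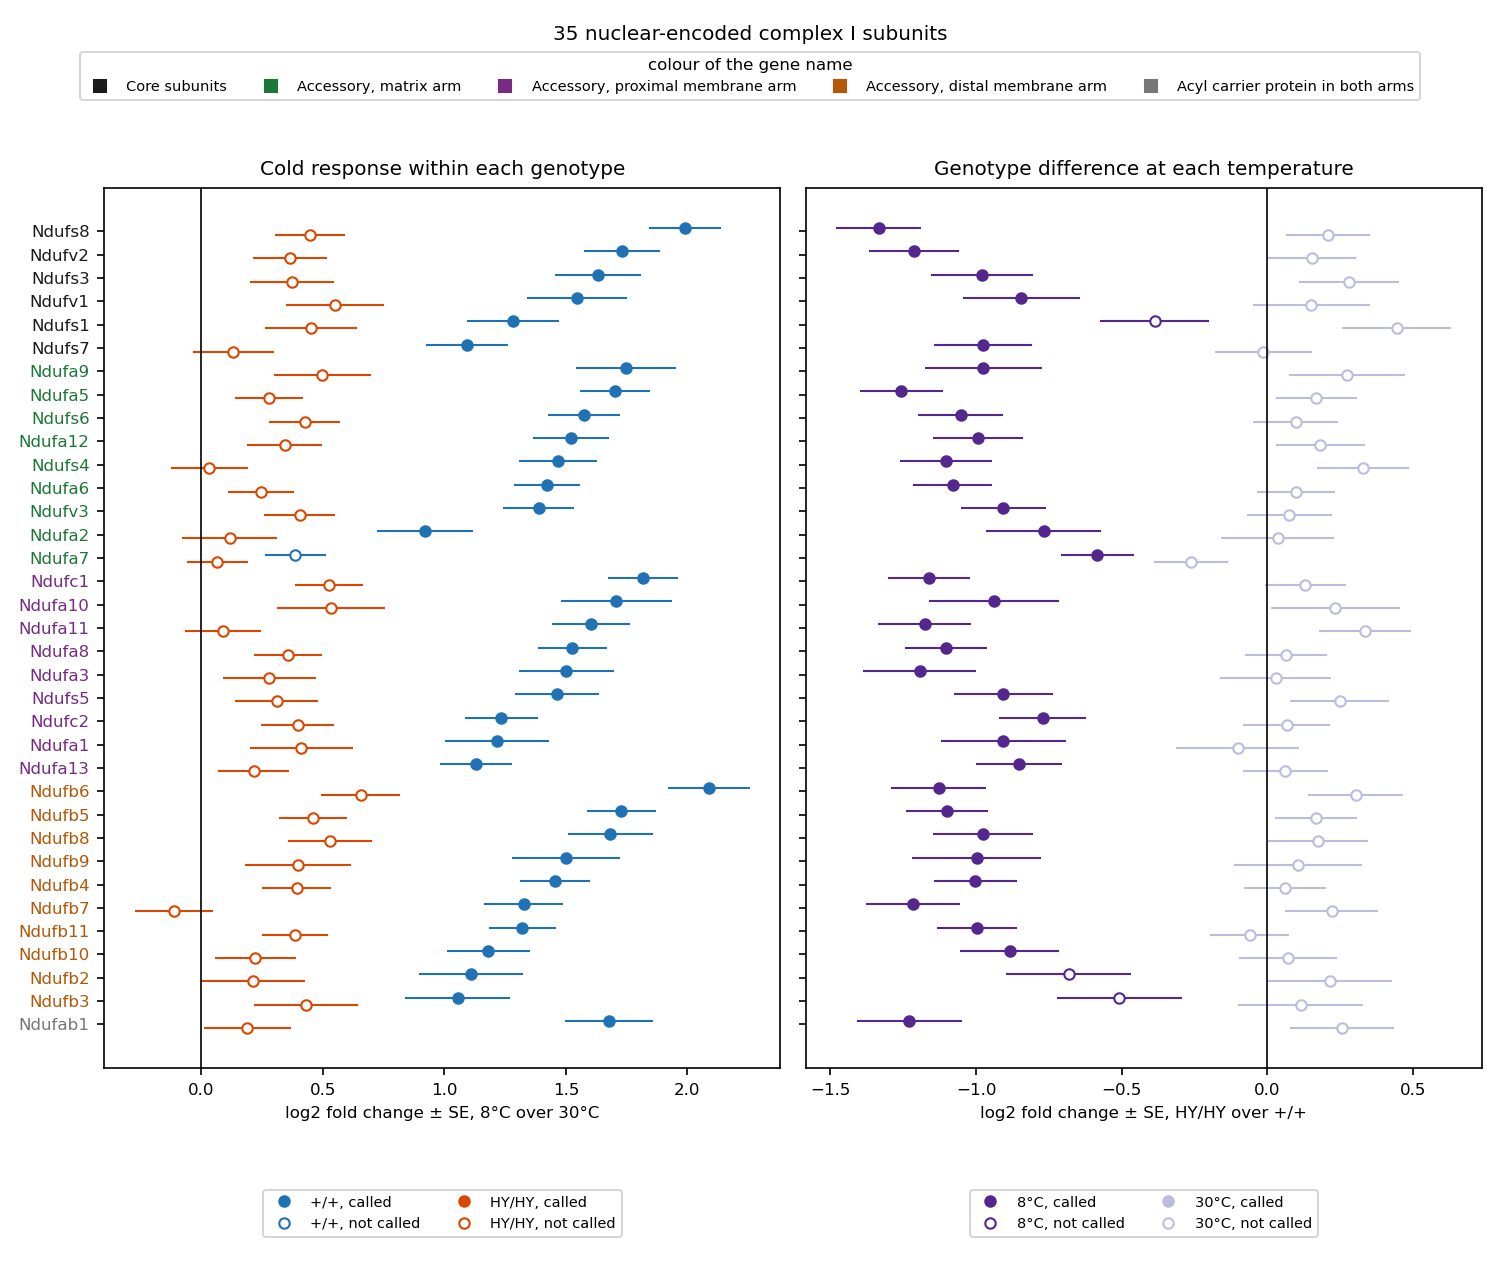
Fitted log2 fold changes ± SE (x axes) of the 35 members (y axis, coloured by place in the enzyme): on the left 8°C over 30°C within wild type (blue) and within HY/HY (orange), on the right HY/HY over wild type at 8°C (dark) and at 30°C (pale). Filled symbols were called and open symbols were not, and the orange symbols lie between -0.11 and 0.66, left of the blue symbol of the same gene in each row.

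The members lie on 15 chromosomes, with at most 5 on the same chromosome. RefSeq promoter sequences (build GRCm38.p6, 250 bases before to 50 bases after each start) were matched for 32 of the 35. The 250 bases before the start are printed for 7 members. *Ndufs8* had the largest difference in cold response between genotypes, *Ndufb6* the largest rise in wild type and *Ndufa7* the smallest, and *Ndufa11*, *Ndufa5*, *Ndufs5* and *Ndufb4* hold the motif that was most frequent among the members. Each is written 5′ to 3′ on the strand of the gene, with matches to the motifs searched in capitals.

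Ndufs8 (chr19:3912775-3913024, minus strand): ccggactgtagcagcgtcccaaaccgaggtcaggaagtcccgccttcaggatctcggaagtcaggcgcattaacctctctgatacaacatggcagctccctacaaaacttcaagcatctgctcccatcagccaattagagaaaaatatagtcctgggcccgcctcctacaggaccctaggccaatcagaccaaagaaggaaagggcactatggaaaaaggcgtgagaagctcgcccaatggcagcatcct
Ndufb6 (chr4:40279422-40279671, minus strand): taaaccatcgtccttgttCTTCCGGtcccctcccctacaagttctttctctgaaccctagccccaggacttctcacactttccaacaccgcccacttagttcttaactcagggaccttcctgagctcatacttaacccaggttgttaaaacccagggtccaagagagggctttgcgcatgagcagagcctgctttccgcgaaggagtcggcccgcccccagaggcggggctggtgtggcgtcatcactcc
Ndufa7 (chr17:33824322-33824571, plus strand): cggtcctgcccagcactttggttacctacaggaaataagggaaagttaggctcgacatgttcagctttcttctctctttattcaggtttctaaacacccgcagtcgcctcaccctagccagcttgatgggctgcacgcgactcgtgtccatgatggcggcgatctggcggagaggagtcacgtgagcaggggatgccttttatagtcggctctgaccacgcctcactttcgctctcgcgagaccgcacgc
Ndufa11 (chr17:56717512-56717761, plus strand): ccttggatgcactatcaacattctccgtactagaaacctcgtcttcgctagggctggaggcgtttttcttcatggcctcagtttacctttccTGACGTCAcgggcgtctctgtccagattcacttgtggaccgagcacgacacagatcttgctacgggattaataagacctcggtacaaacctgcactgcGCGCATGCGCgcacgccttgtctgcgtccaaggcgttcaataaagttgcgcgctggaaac
Ndufa5 (chr6:24527691-24527940, minus strand): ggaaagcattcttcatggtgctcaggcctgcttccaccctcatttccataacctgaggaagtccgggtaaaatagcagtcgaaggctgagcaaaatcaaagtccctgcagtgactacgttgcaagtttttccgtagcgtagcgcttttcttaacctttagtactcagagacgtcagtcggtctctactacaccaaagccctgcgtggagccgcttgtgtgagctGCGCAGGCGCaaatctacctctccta
Ndufs5 (chr4:123718187-123718436, minus strand): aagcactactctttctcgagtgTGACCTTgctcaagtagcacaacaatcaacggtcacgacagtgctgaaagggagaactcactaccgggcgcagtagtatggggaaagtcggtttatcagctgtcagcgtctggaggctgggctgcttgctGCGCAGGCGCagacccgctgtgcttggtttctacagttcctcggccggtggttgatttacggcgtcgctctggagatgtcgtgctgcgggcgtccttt
Ndufb4 (chr16:37654369-37654618, minus strand): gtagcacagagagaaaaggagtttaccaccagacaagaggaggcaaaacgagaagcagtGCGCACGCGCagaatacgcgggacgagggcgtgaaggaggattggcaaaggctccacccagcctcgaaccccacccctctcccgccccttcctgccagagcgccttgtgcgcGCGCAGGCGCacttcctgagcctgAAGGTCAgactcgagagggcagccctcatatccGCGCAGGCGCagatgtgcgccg

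Motifs of 4 kinds of factor that act on mitochondrial genes were searched on both strands of the 300-base windows. The NRF1-type sequence, GCGCA followed by any base and GCGC, occurred in 7 of the 32 members (21.88%), *Ndufa5*, *Ndufa6*, *Ndufa8*, *Ndufa11*, *Ndufb4*, *Ndufs5* and *Ndufs6*, and in 5.19% of 27025 genes with such a window. Its palindromic case, with T as that base, occurred in *Ndufa11* alone among the members and in 1.07% of all genes. In *Ndufb4* the looser form occurs 3 times in the bases printed. The ERR element TCAAGGTCA was found in none of the 32 members and in 0.47% of all genes, and its shorter core AAGGTCA, which it contains, in *Ndufb2*, *Ndufb4* and *Ndufs5* (9.38%, against 5.38% of all genes). The ETS sequence bound by GABP, CCGGAAG, was found in *Ndufb6*, *Ndufb7*, *Ndufs3* and *Ndufs8* (12.5%, against 9.93%), in *Ndufs8* only behind the start, outside the bases shown. The CREB element TGACGTCA was found in *Ndufa10*, *Ndufa11* and *Ndufb2* (9.38%, against 2.03%). In all, 13 of the 32 members held 1 or more of these motifs in a window and 19 held none, among them *Ndufa7* at both of its starts. These are matches of letters in a short window and were not tested as binding sites.

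In HY/HY scWAT none of the 35 members was called higher or lower at 8°C against 30°C by the quasi-likelihood test of edgeR (Benjamini-Hochberg adjusted), where 0.181% of all genes were called higher. DESeq2 called 1, *Ndufb6*, and 1.31% of all genes as higher. At an unadjusted p below 0.05 there were 17 of 35, against 14.7% of all genes. Point estimates were mostly of 1 sign: 34 of 35 members had a positive log2 fold change (47.8% of all genes), 31 with library totals as the scale, and the median was 0.37, a fold of 1.30. For 17 members the 3 libraries at 8°C lay above the 3 at 30°C, which held for 9.33% of all genes.

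The count in HY/HY depended on 1 library. HY/HY replicate 3 at 30°C was the highest of its group for 30 of 35 members, and wild-type replicate 3 at 30°C for 34 of 35. The same 2 libraries had the highest adipocyte marker sums at 30°C (25188 CPM in wild type and 37287 CPM in HY/HY) and the highest beige marker sums (198 and 231 CPM), and the part of these in the members' levels was not tested. Without HY/HY replicate 3 at 30°C, 5 members were called higher with cold in HY/HY (*Ndufb6*, *Ndufb8*, *Ndufc1*, *Ndufs1* and *Ndufv1*), where 2.72% of all genes then were. Without both of these libraries, an alternative chosen after seeing their high member sums, 10 were called, the same 5 with *Ndufa1*, *Ndufa9*, *Ndufa10*, *Ndufb3* and *Ndufb9*, where 4.24% of all genes were. The wild-type library is not part of the HY/HY comparison and enters it only through the shared fit. The members' median log2 fold change in HY/HY was 0.49 without HY/HY replicate 3 and 0.49 without both. All 35 members had a smaller estimated change in HY/HY than in wild type.

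Among the core subunits, *Ndufv1* was at 169.6, 195 and 273 CPM in HY/HY at 30°C and 309, 299 and 325 CPM at 8°C, a log2 fold change of 0.55 ± 0.20 (SE), the largest of the 6. *Ndufs8* was at 77.9, 99.7 and 102 CPM and 125, 139 and 117 CPM, with every 8°C library above every 30°C library. *Ndufs7* was at 113, 146 and 157 CPM and 163, 154 and 139 CPM, where the 2 temperatures overlapped. The 1 negative estimate was that of *Ndufb7*, a subunit of the distal arm on the intermembrane side, at 123, 154 and 151 CPM and 139, 138 and 119 CPM (-0.11 ± 0.16 (SE), adjusted p 0.791 by edgeR). *Ndufs4*, a matrix arm subunit whose loss in mice causes a Leigh-like encephalopathy, was at 137, 179 and 169 CPM and 151, 182 and 164 CPM, and *Ndufa11*, a membrane subunit that contacts complex III in supercomplexes, at 67.7, 97.9 and 85.0 CPM and 97.6, 87.2 and 81.8 CPM. For these 3 the libraries of the 2 temperatures overlapped.

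At 8°C, 32 of the 35 members were called lower in HY/HY than in wild type and none higher, where 4.42% of all genes were called lower. All 3 HY/HY libraries lay below all 3 wild-type libraries for every member, which held for 19% of all genes. The median log2 fold change was -0.99, a fold of 0.502, beside 0.01 over all genes. This comparison shares its wild-type libraries with the cold comparison in wild type and its HY/HY libraries with that in HY/HY, so it is not independent of them. Leaving out single libraries gave 23 to 33 calls, and 22 members were called under every alternative. The 10 that lost their call under at least 1 were *Ndufa1*, *Ndufa2*, *Ndufa7*, *Ndufa9*, *Ndufa10*, *Ndufb9*, *Ndufb10*, *Ndufc2*, *Ndufs5* and *Ndufv1*.

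*Ndufs8* differed most: 125, 139 and 117 CPM in HY/HY against 319.6, 312 and 328 CPM in wild type, a fold of 0.397 and a log2 fold change of -1.33 ± 0.15 (SE) with an adjusted p of 9.2e-04 by edgeR. *Ndufa5*, a small subunit of the matrix arm, followed with 144, 149.5 and 116 CPM against 349, 306 and 324 CPM. *Ndufab1* was at 178, 229 and 198 CPM against 356, 518 and 547 CPM. In each of these, the highest HY/HY library was below the lowest wild-type library. *Ndufb7* (139, 138 and 119 CPM against 331, 288 and 301 CPM) and *Ndufv2* (184, 211 and 199.9 CPM against 409, 459.6 and 510.2 CPM) had log2 fold changes of -1.22 and -1.21. *Ndufv1* (-0.84 ± 0.20 (SE)), *Ndufs3* (-0.98 ± 0.17 (SE)) and *Ndufs7* (-0.98 ± 0.17 (SE)) were called with smaller differences, *Ndufs3* and *Ndufs7* under all 21 alternatives and *Ndufv1* in 15, since it lost the call without any 1 of the 6 libraries at 8°C.

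The 3 members not called at 8°C were *Ndufs1*, *Ndufb3* and *Ndufb2*. *Ndufs1* was at 241, 276 and 302 CPM in HY/HY and 317, 377 and 376 CPM in wild type, a log2 fold change of -0.39 ± 0.19 (SE) with an adjusted p of 0.251 by edgeR. *Ndufb3* was at 210.2, 183 and 208 CPM and 269, 295 and 292 CPM (-0.51 ± 0.21 (SE), adjusted p 0.185 by edgeR). *Ndufb2* was at 8.16, 7.81 and 5.68 CPM and 12.3, 9.88 and 12.7 CPM (-0.68 ± 0.21 (SE), adjusted p 0.0793 by edgeR), and was called by DESeq2. For all 3 the HY/HY libraries still lay below the wild-type libraries, so that the missing call does not show equal levels. *Ndufb2* had 70 to 198 reads in a library, where every other member had 562 to 10150, and its precision is limited by this. *Ndufa7* was called lower at 8°C, at 157, 146 and 139 CPM against 212, 222 and 229 CPM (-0.58 ± 0.13 (SE)), although it had not been called with cold in wild type, and it kept this call in 14 of 21 alternatives, losing it with library totals, with only the libraries of the comparison, and without wild-type replicate 2 or 3 or any HY/HY library at 8°C.

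**Figure D3:**
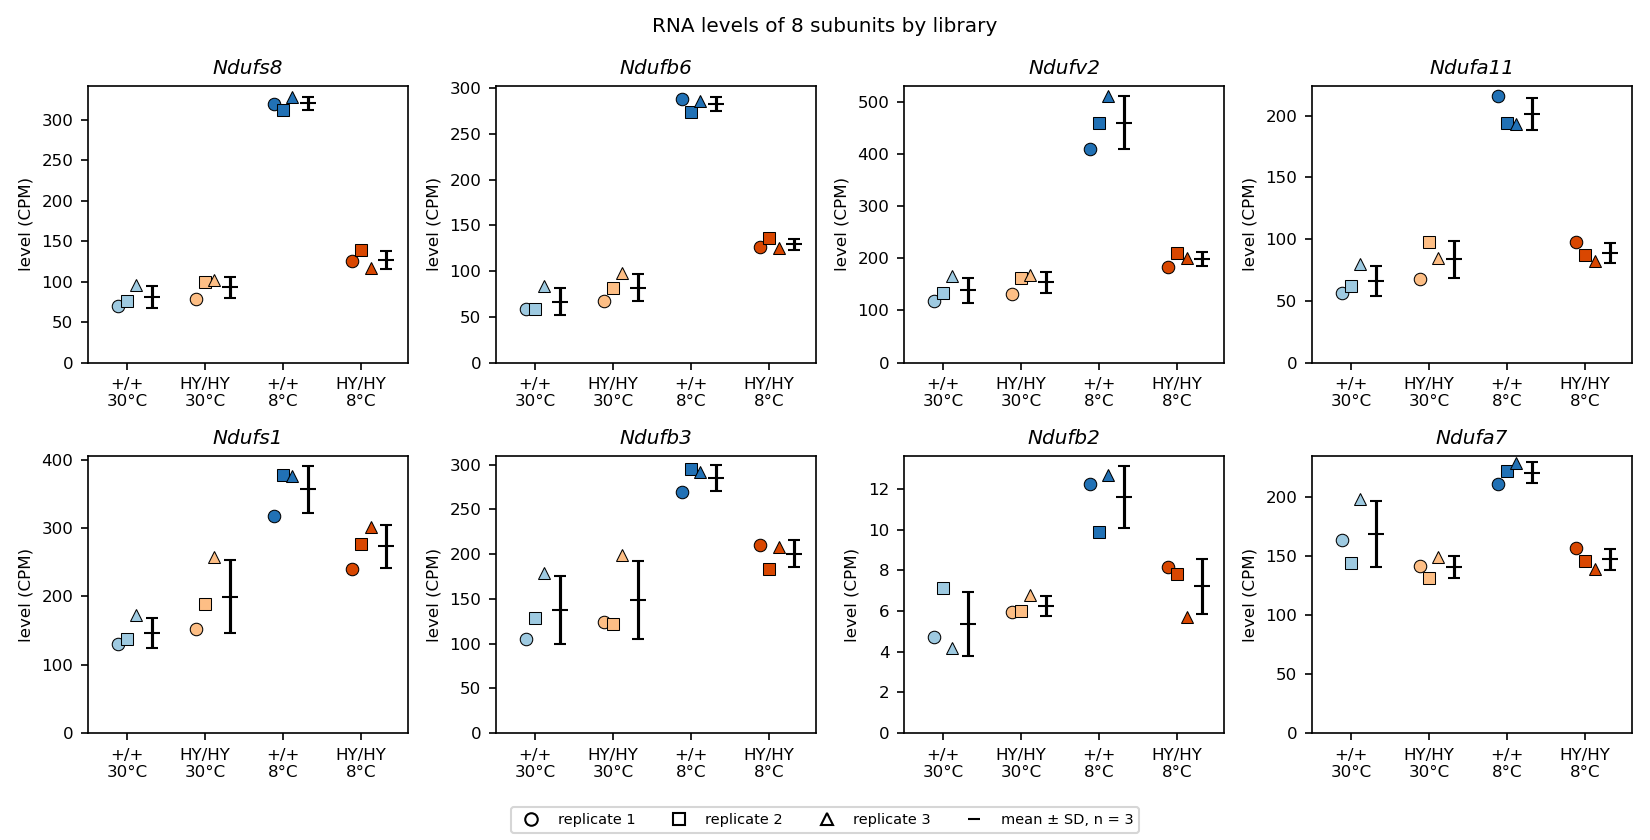
RNA levels (y axes, CPM, each panel from 0 with its own scale) of 8 members in the 4 groups (x axis), with 1 symbol per library and the mean ± SD of 3 libraries. In the top row (Ndufs8, Ndufb6, Ndufv2, Ndufa11) the wild-type 8°C libraries stand apart from all others, and in the bottom row (Ndufs1, Ndufb3, Ndufb2, Ndufa7) the gap to the HY/HY libraries at 8°C is smaller.

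At 30°C no member was called between the genotypes by edgeR, where 1% of all genes were called. DESeq2 called no member either, while it called 357 of the 16540 genes higher and 312 lower in HY/HY. At an unadjusted p below 0.05 by edgeR there was 1 member, *Ndufs1*, against 18.6% of all genes. It was at 152, 189 and 257 CPM in HY/HY and 131, 137 and 172 CPM in wild type (0.44 ± 0.19 (SE), adjusted p 0.234 by edgeR). For no member did the libraries of the 2 genotypes separate, as they did for 7.66% of all genes with HY/HY higher and 10.6% with HY/HY lower. The median log2 fold change was 0.15, with 31 of 35 positive under TMM, 25 of 35 with library totals and 49% of all genes. This depended on single libraries: without HY/HY replicate 3 at 30°C the median was 0.01, with 19 members positive and 16 negative, and without wild-type replicate 1 at 30°C there were 23 positive and 12 negative. The range was from -0.26 for *Ndufa7*, which was at 142, 131 and 149 CPM in HY/HY and 164, 144 and 199 CPM in wild type, to 0.44 for *Ndufs1*.

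The difference between the cold responses themselves, tested as an interaction of genotype and temperature, was called for 23 of 35 members. All 23 had the smaller or more negative change in HY/HY. Over all genes, 2.24% were called in either direction and 2.07% in that direction. The estimate was negative for all 35, while 54.4% of all genes were positive, with a median of -1.15 on the log2 scale beside 0.04 over all genes. By role, 3 of 6 core subunits were called (*Ndufs8*, *Ndufv2* and *Ndufs3*), 7 of 9 at the matrix arm, 6 of 9 at the proximal and 6 of 10 at the distal membrane arm, and *Ndufab1*. The count depended on the libraries: it was 7 without HY/HY replicate 1 at 8°C and 31 without wild-type replicate 3 at 30°C, where 0.378% and 2.95% of all genes were called in that direction, and DESeq2 called 30, with 4.32% of all genes. Leaving out wild-type replicate 1 or 2 at 30°C, or any of the other 8°C libraries, gave 10 to 13. The 7 members called under every alternative were *Ndufa5*, *Ndufa11*, *Ndufb5*, *Ndufb7*, *Ndufc1*, *Ndufs4* and *Ndufs8*.

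*Ndufs8* had the largest such difference, -1.54 ± 0.20 (SE) with an adjusted p of 0.00787 by edgeR, since it rose by 1.99 in wild type and stood at 0.45 in HY/HY. *Ndufa11* followed at -1.51 ± 0.22 (SE). It was at 56.7, 62.1 and 80.0 CPM in wild type at 30°C and 216, 194 and 193 CPM at 8°C, while its HY/HY libraries at both temperatures lay between 67.7 and 97.9 CPM. Among the accessory subunits of the matrix arm the largest was that of *Ndufs4* (-1.43 ± 0.22 (SE)), which in wild type rose from 107, 120.4 and 159 CPM to 337, 361 and 369 CPM. In the distal membrane arm it was that of *Ndufb7* (-1.44 ± 0.23 (SE)), from 101, 111 and 155 CPM to 331, 288 and 301 CPM in wild type. The least negative estimates by arm were those of *Ndufa7* (-0.32 ± 0.18 (SE)), *Ndufb3* (-0.62 ± 0.30 (SE)) and *Ndufa1* (-0.80 ± 0.30 (SE)), none of which was called. *Ndufa1*, a small X-linked subunit, was at 95.0, 92.4 and 151 CPM and 283, 266 and 236 CPM in wild type, and at 89.1, 86.7 and 139 CPM and 141, 140.2 and 138 CPM in HY/HY at 30°C and 8°C.

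Other members moved within the ranges given. *Ndufa2*, *Ndufa3*, *Ndufa6*, *Ndufa8*, *Ndufa10*, *Ndufa12*, *Ndufa13*, *Ndufc2*, *Ndufs5*, *Ndufs6*, *Ndufv3*, *Ndufb4*, *Ndufb8*, *Ndufb9*, *Ndufb10* and *Ndufb11* were each called higher with cold in wild type and lower in HY/HY at 8°C. *Ndufb8*, a subunit that is degraded when the complex is not assembled, was at 399.9, 397 and 380.4 CPM in wild type and 181, 225 and 193 CPM in HY/HY at 8°C. Of these 16, *Ndufa2*, *Ndufa10*, *Ndufb9*, *Ndufb10* and *Ndufc2* were not called for the interaction, with adjusted p by edgeR between 0.0642 and 0.187. *Ndufa2* had the smallest called rise in wild type, from 98.0, 106 and 161 CPM to 250.2, 235 and 206 CPM, with 108, 111 and 155 CPM and 148, 126 and 132 CPM in HY/HY.

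Complex I subunits have processed pseudogenes and near-identical copies, and the counts keep only reads that align to 1 place. In an older mouse build (NCBIM37), 19 members had no 50-base stretch of a coding transcript outside their own gene, and 8 had over 10% of such stretches elsewhere: *Ndufs3* (43.0%), *Ndufs5* (42.2%), *Ndufb4* (41.3%), *Ndufa12* (24%), *Ndufb11* (15.4%), *Ndufb3* (14.6%), *Ndufab1* (13.4%) and *Ndufc1* (13.2%). Over the shortest coding transcript alone the share was 84.9% for *Ndufab1*, 57.8% for *Ndufs5*, 46.8% for *Ndufa12* and 14.2% for *Ndufs6*, which makes *Ndufab1* the most affected member by that measure. Reads of these 8 can be lost or assigned to a copy, and their values are less certain. Of the other 27, 26 were called with cold in wild type and 25 between genotypes at 8°C, with medians of 1.5 and -0.98. Further, 6 members (*Ndufa11*, *Ndufab1*, *Ndufb6*, *Ndufa9*, *Ndufb5* and *Ndufs1*) kept under 90% of their reads when strands were counted together, from 42.8% for *Ndufab1* to 85.9% for *Ndufs1*. These share reads with a gene on the other strand unless strand is used. Sense reads alone were used here, and counting both strands left the calls at 34 with cold in wild type and at 32 between genotypes at 8°C.

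The 7 subunits encoded in mitochondrial DNA form the proton-pumping core of the membrane arm. Their summed level was 38166, 31727 and 39549 CPM in wild type at 30°C and 65300, 78617 and 72789 CPM at 8°C, and 28001, 32525 and 69144 CPM and 48530, 45176 and 53753 CPM in HY/HY. HY/HY replicate 3 at 30°C, high for the nuclear-encoded members as well, was more than the other 2 libraries of its group together. In wild type 4 of 7 were called higher with cold, against 10.3% of all genes: *mt-Nd1* (1.39 ± 0.32 (SE)), *mt-Nd2* (1.13 ± 0.36 (SE)), *mt-Nd6* (2.30 ± 0.67 (SE)) and *mt-Nd3*. The call of *mt-Nd3* came from 1 library, with 89.7 CPM in wild-type replicate 3 at 8°C and at most 1.13 CPM in the other 11 libraries. No mtDNA-encoded subunit was called in HY/HY with cold, between genotypes at 8°C or for the interaction, where 0, 2 and 2 of the 7 had an unadjusted p below 0.05. With cold in HY/HY, 14.7% of all genes had such a p by edgeR. At 8°C *mt-Nd1* was at 14377, 13320 and 15670 CPM in HY/HY and 23510, 27847 and 27870 CPM in wild type (-0.87 ± 0.31 (SE), adjusted p 0.121 by edgeR). Their standard errors, from 0.30 upward in that comparison, were larger than those of the nuclear-encoded members (0.13 to 0.22). Mitochondrial reads of *mt-Nd3*, *mt-Nd4* and *mt-Nd4l* have identical stretches elsewhere in that build (99.0%, 62.2% and 100% of 50-base stretches), so their counts are uncertain.

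Of 20 assembly factors, which build complex I and then leave it, 19 were matched and tested. In wild type 12 were called higher with cold and none lower, where 10.3% of all genes were called higher. The median log2 fold change of the 19 was 0.70, beside 1.5 for the subunits. Of the called ones *Ndufaf4* rose most (1.46 ± 0.22 (SE)) and *Dmac2* least (0.64 ± 0.12 (SE)). None was called in HY/HY with cold, with 7 of 19 at an unadjusted p below 0.05 by edgeR, against 14.7% of all genes. At 8°C 4 were called lower in HY/HY, from *Dmac2* (-0.94 ± 0.12 (SE)) to *Ndufaf5* (-0.69 ± 0.16 (SE)), against 4.42% of all genes. For 13 of 19 the HY/HY libraries lay all below wild type, against 19% of all genes. *Dmac2* was the only assembly factor called for the interaction. Whether subunits and assembly factors differ in response was not tested.

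*Ndufa4*, named as a complex I subunit but now placed with cytochrome oxidase, was called higher with cold in wild type and lower in HY/HY at 8°C, at 251, 253 and 404 CPM and 834, 879 and 770 CPM in wild type, 276, 275 and 399 CPM and 399, 419 and 375 CPM in HY/HY. Its paralog *Ndufa4l2*, a hypoxia-induced gene, was not called with cold in wild type (0.18 ± 0.16 (SE)) and was called lower with cold in HY/HY (-0.92 ± 0.16 (SE), adjusted p 0.0431 by edgeR). Of 7 other dehydrogenases linked to NADH or ubiquinone, with a median of 1.73, 6 were called higher with cold in wild type, against 10.3% of all genes. These were the 4 subunits of succinate dehydrogenase, *Etfdh* (2.55 ± 0.24 (SE)), which passes electrons from fatty acid oxidation, and *Gpd2* (2.28 ± 0.22 (SE)), the mitochondrial glycerol-3-phosphate dehydrogenase. *Dhodh*, of pyrimidine synthesis, was not called in any comparison. At 8°C 4 of the 7 were called lower in HY/HY, against 4.42% of all genes. They ran from *Gpd2* (-1.33 ± 0.21 (SE)) to *Etfdh* (-1.03 ± 0.23 (SE)), with *Sdhb* and *Sdhd*, and *Sdha* and *Sdhc* were not called. *Nnt*, the proton-driven transhydrogenase that C57BL/6J mice lack, was at most 0.325 CPM in any library and was not tested.

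Of 8 regulators of mitochondrial genes, *Ppargc1a*, which encodes the coactivator PGC-1α, was at 3.44, 5.12 and 3.35 CPM in wild type at 30°C and 17.6, 35.9 and 25.7 CPM at 8°C, and at 4.61, 7.23 and 10.2 CPM in HY/HY at 30°C and 8.48, 14.6 and 8.44 CPM at 8°C, where the 2 temperatures overlapped in HY/HY. *Ppargc1a*, *Ppargc1b*, *Esrra* and *Gabpa* were called higher with cold in wild type and lower in HY/HY at 8°C. *Pprc1* was called lower with cold in wild type (-0.61 ± 0.19 (SE)), *Tfam* (0.36 ± 0.08 (SE)) passed on p but not on fold, and *Gabpb1* and *Nrf1* were not called in any comparison. None of the 8 was called with cold in HY/HY. The regulators and the members came from the same libraries, and a dependence of either on the other was not tested.

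**Figure D4:**
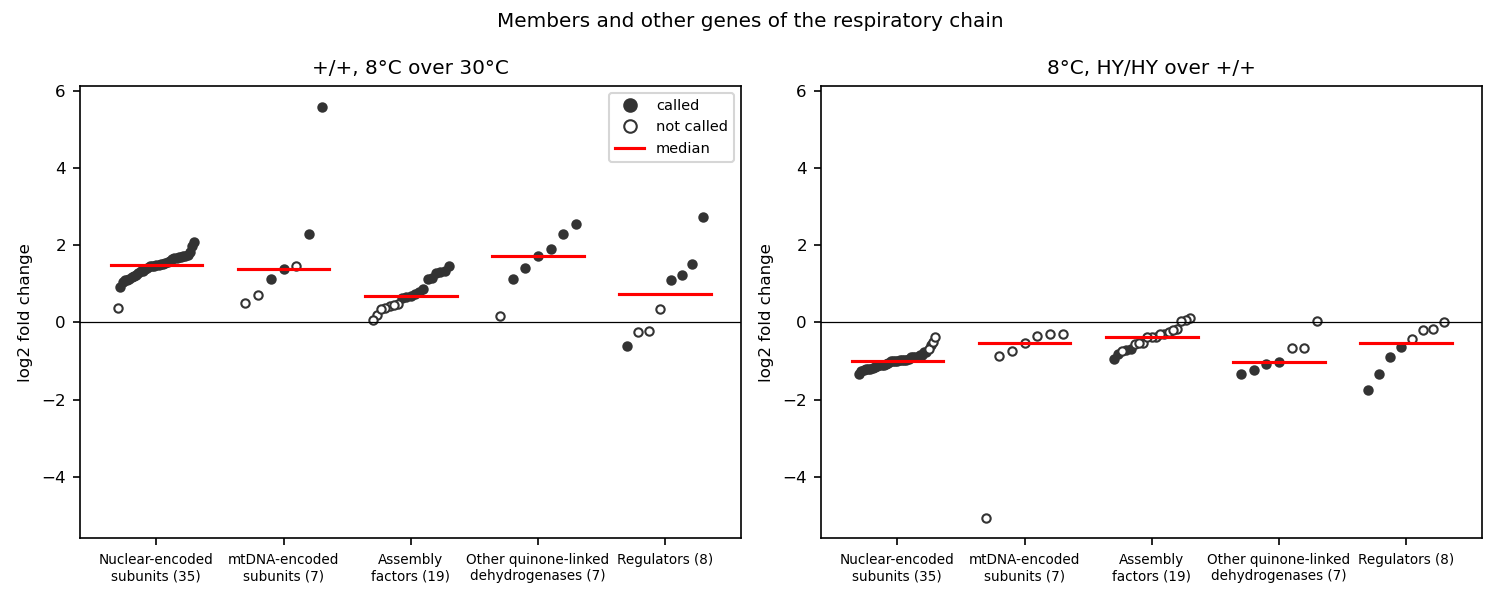
Fitted log2 fold changes (y axes) of single genes in 5 lists (x axis, number of genes tested in parentheses), 8°C over 30°C in wild type (left) and HY/HY over wild type at 8°C (right), with filled points for called genes and a red line at the median. The nuclear-encoded subunits have medians of 1.5 and -0.99, and the far points of the mtDNA-encoded list are mt-Nd3, which rests on 1 library.

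Markers of several cell types also differed between groups, some in the direction of the members and some not. The 6 beige adipocyte markers (*Ucp1*, *Cidea*, *Dio2*, *Elovl3*, *Cox7a1* and *Cox8b*) summed to 71.3 to 198 CPM in wild type and 60.8 to 231 CPM in HY/HY at 30°C, and to 8330 to 9240.4 CPM in wild type and 525 to 1665 CPM in HY/HY at 8°C. All 6 were called higher with cold in wild type, 3 in HY/HY, and 5 lower in HY/HY at 8°C. Within HY/HY at 8°C these markers spanned 1266, 1665 and 525 CPM in replicates 1, 2 and 3, where the members summed to 5614, 5786 and 5534 CPM. Of 5 macrophage markers 3 were called higher in HY/HY at 8°C (108 to 161 CPM summed, against 61.1 to 63.5 CPM). The 3 endothelial markers were called higher with cold in wild type, with sums of 347 to 541 CPM at 30°C and 665 to 942 CPM at 8°C, and none between genotypes. Mammary epithelial markers summed to 2109.5 to 3828 CPM in wild type at 30°C and to 551 to 1552, 1410.5 to 1557 and 911 to 1336 CPM in HY/HY at 30°C, wild type at 8°C and HY/HY at 8°C. Lymphocyte markers summed to 33.0 to 59.3 CPM in wild type and 71.2 to 242 CPM in HY/HY at 8°C, with none called, and the 2 erythrocyte markers matched to 183 to 245 and 90.8 to 174 CPM. None of the adipocyte markers was called lower in HY/HY at 8°C (27269 to 39456 CPM summed, against 22430 to 29920 CPM), and *Lep* was called higher. The part of any of these in the members' changes was not tested.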

How the data were processed

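RNA from scWAT was made into TruSeq libraries and sequenced as paired 50-base reads on an Illumina HiSeq. The authors trimmed reads with fastp and aligned them with STAR to mm10, and the deposited files hold counts per gene from unique alignments, for the strands combined and apart (labels also name FastQC and StringTie, with no versions given in the sources used here). The column with 95.5 to 96.2% of the strand-resolved counts was used as sense. Counts of unassigned reads were left out of library sizes: 26.7 to 32.2% of read pairs aligned to several places, which affects members with copies.

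Of 55401 IDs, 32589 matched a symbol. Genes were kept by filterByExpr (16540), scaled by TMM and fitted with edgeR 4.0.16 (R 4.3.3) in 1 model of 4 groups with 8 residual degrees of freedom, p-values adjusted over all genes. SE is the log2 fold change divided by the root of F. The model was also run on simulated counts in which some genes were raised in wild type at 8°C alone. These counts hold fewer changes than the data, and no result here rests on them. DESeq2 1.42.0, other scalings and filters, counts of both strands and leaving out each library were the alternatives. With 3 libraries a group, an exact permutation test of a single value cannot go below p = 0.1 and was not used. Replicate numbers were checked for pairing: deviations of same-numbered libraries correlated at 0.11 to 0.30 between the HY/HY groups, where all 3 were above 0.1, and at -0.07 to 0.35 over all pairs of groups. The labels name no shared litter or day. With the replicate number as a block, 0 members were called with cold in HY/HY, as without it.

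The members were listed by gene name, and this list and the others were drawn up with earlier results of these data known. Named in full were the core subunits, in each accessory group the members with the most and least negative interaction, and the members that departed from the common call. Other members were then added after their values were seen.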

Additional observations from a re-analysis of the deposited data

Results flagged for a closer look

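For 23 members the cold response differed between the genotypes by a test of the difference itself, the interaction of genotype and temperature in edgeR's quasi-likelihood fit. Over all genes tested, 2.24% were called in either direction and 2.07% with the smaller or more negative change in HY/HY. Of the 23 members, 7 were called under every alternative and 16 lost the call under at least 1. The value for each is the log2 change with cold in HY/HY minus that in wild type. The widest differences were those of *Ndufs8* -1.54, *Ndufa11* -1.51, *Ndufab1* -1.49, *Ndufb7* -1.44, *Ndufs4* -1.43, *Ndufb6* -1.43, *Ndufa5* -1.43 and *Ndufv2* -1.37. Next came *Ndufc1* -1.29, *Ndufb5* -1.27, *Ndufs3* -1.26, *Ndufa9* -1.25, *Ndufa3* -1.22, *Ndufa12* -1.18, *Ndufa6* -1.18 and *Ndufa8* -1.17. The smallest were those of *Ndufs5* -1.15, *Ndufb8* -1.15, *Ndufs6* -1.15, *Ndufb4* -1.06, *Ndufv3* -0.98, *Ndufb11* -0.94 and *Ndufa13* -0.92. In all 23 the estimated log2 change with cold was lower in HY/HY than in wild type, and for *Ndufb7* it was slightly negative in HY/HY (-0.11). The remaining 12 members had estimates of the same sign, from -1.17 for *Ndufa10* to -0.32 for *Ndufa7*, that did not pass the threshold. Groups of 3 libraries were too small to test for single outlying libraries.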

How the results depend on the processing

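With cold in wild type, the 34 calls and their direction were the same under the 21 alternatives run on them (35 passed on the adjusted p alone), and between genotypes at 30°C no alternative called a member. The members' median in wild type moved from 1.5 to 1.18 with library totals, and it was 1.39 to 1.70 when single libraries were left out, with 1.70 without wild-type replicate 3 at 30°C and also without both replicate 3 libraries at 30°C (chosen after seeing the data). With cold in HY/HY, DESeq2 called 1 member, leaving out single libraries gave 0 to 5, and leaving out both of these libraries gave 10. Between genotypes at 8°C, single libraries left out gave 23 to 33 calls. For the interaction they gave 7 to 31 calls and a median of -1.34 to -0.99, where library totals gave -0.94 and 20 calls. Over all 16540 genes, those called with the smaller or more negative change in HY/HY went from 342 to 186 with library totals. Of the single libraries, those at 8°C in either genotype and wild-type replicates 1 and 2 at 30°C each lowered the interaction count to 13 or fewer, with fewer libraries in the fit. No member changed sign with cold in wild type, between genotypes at 8°C or for the interaction. The other 2 comparisons had 0 members called in the main fit, so they held no call that could reverse. Signs of estimates did change there. With cold in HY/HY, positive members went from 34 to 31 with library totals. Between genotypes at 30°C they went from 31 to 19 without HY/HY replicate 3 at 30°C. With the replicate number as a block, which the labels tie to no shared litter or day, the counts were 34, 0, 32 and 0 in the comparisons above and 28 for the interaction. Depth was least for *Ndufb2*.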

Other observations

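The spread between libraries differed by group. The median coefficient of variation of the members was 20.7% in wild type and 15.9% in HY/HY at 30°C, and 5.39% and 7.69% at 8°C. As shares of the members' summed level, *Ndufs1* took 4.29, 4.77 and 5.46% in HY/HY at 8°C and 2.90, 3.39 and 3.36% in wild type at 8°C, with no overlap between the groups. At 30°C its shares did not overlap either, at 3.97, 4.40 and 4.89% in HY/HY and 3.73, 3.77 and 3.43% in wild type. Of the 35 members, 4 had shares in HY/HY at 8°C all above wild type, 8 all below and 23 overlapping. At 30°C these counts were 3, 2 and 30. With 3 libraries a group some members separate by chance, and no baseline for these counts was computed. Shares within a library are also tied to each other, since a higher share of some members lowers that of others. Both limits hold for the shares of *Ndufs1* as well.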
